A study of Mus musculus with 9 samples.

Results

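This report describes the transcriptome of cultured adult mouse cardiac fibroblasts in which Tbx20 was targeted with Cas9 guide RNAs (Tbx20 KD), set against cells given scrambled guides (control). The libraries were chosen by the guide RNA on their labels, which gave 3 Tbx20 KD and 3 control libraries, 6 of the 9 in the study. The 3 remaining libraries, Gata4 KD, were made from the same cells with guides to another factor and appear only as a level beside a few results. The cells of all groups came from male RosaCas9-EGFP mice on a C57BL/6 background, 8 to 10 weeks old, whose cells carry Cas9 and EGFP at the Rosa26 locus behind a broadly active promoter. They were cultured for 3 days, sorted as CD45-CD31-CD90+, plated at 10000 cells per cm2 and transfected with guides by lipid after a further 6 days, at 80 to 90% confluency. RNA was collected 3 days after transfection. The study describes 3 biological replicates per condition, but neither it nor the labels say whether these were separate animals or cultures. The p-values therefore measure the spread between these libraries. The cells were a transfected pool and not a clone, and uptake of the guides was not measured in these libraries.

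Total counts ran from 31214828 to 41950397 in the 6 libraries, and 14251 to 14700 genes per library had at least 10 counts. Of 38924 genes in the table, 14547 passed a filter on low counts and were tested. Levels are given in CPM, counts scaled to a library's total and corrected by TMM factors, which adjust for library composition.

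Tbx20 is a transcription factor of the T-box family. T-box factors bind DNA through a shared domain and act as activators or repressors, and Tbx20 is needed to form the chambers and valves of the embryonic heart. Cardiac fibroblasts make and remodel the collagen matrix of the heart, and they keep several transcription factors of the developing heart switched on in the adult. Matrix metalloproteinases, which recur in the results below, are enzymes that cut collagens and other matrix proteins and are held in check by the TIMP inhibitors.

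Tbx20 KD cells received 2 guides and control cells 2 scrambled guides, printed here because they are the only designed difference between the groups. The bases in capitals are the PAM, the motif beside the target that Cas9 needs, as read from the Tbx20 transcript. The scrambled guides have no target and no PAM, and neither matched a Tbx20 transcript on either strand.
Tbx20_sgRNA2: caaattccatgaactgggcaCGG
Tbx20_sgRNA3: gagctgctcgccagtaaaggGGG
NTC_sgRNA1: gcgaggtattcggctccgcg
NTC_sgRNA2: gctttcacggaggttcgacg
On GRCm38, the Tbx20 gene (ENSMUSG00000031965) occupies chr9:24718138-24774303 and is transcribed from the minus strand. The target of Tbx20_sgRNA2 is chr9:24770708-24770727 on the minus strand, in coding exon 2 of the 8 exons of transcript Tbx20-201. At its expected cut, 346 of 1335 coding bases (25.9%) lie upstream. The target of Tbx20_sgRNA3 is chr9:24765732-24765751 on the plus strand, in exon 4, with 568 coding bases (42.5%) upstream of the cut. The targets are 4956 bases apart in the genome, and 222 coding bases lie between the expected cuts.

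Tbx20 itself was examined first. Its level was 1004, 1289 and 719 CPM in control a, b and c and 323, 431 and 431 CPM in Tbx20 KD a, b and c. All Tbx20 KD libraries lay below all controls, and the controls alone spanned a range wider than the whole level left in the knockdown. Mean expression in control was 1004 ± 285 CPM and in the knockdown 394.7 ± 62.4 CPM (SD, n = 3 each), a level 60.7% lower. The log2 fold change was -1.35 (SE 0.21, 95% interval -1.82 to -0.87), so the interval ran from 28.3% to 54.6% of the control level. This was the third smallest p-value of the 14547 genes, 0.000154 before adjustment, but after Benjamini-Hochberg adjustment edgeR's quasi-likelihood p was 0.748, above the threshold of 0.05. It passed in 4 of the 16 alternative fits, among them DESeq2 (adjusted p 2.8e-08), and the fits that left out 1 library gave log2 fold changes from -1.53 to -1.13. Counts of RNA do not separate edited from unedited transcripts, and fewer cells with the transcript cannot be told apart from less transcript per cell.

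**Figure D1:**
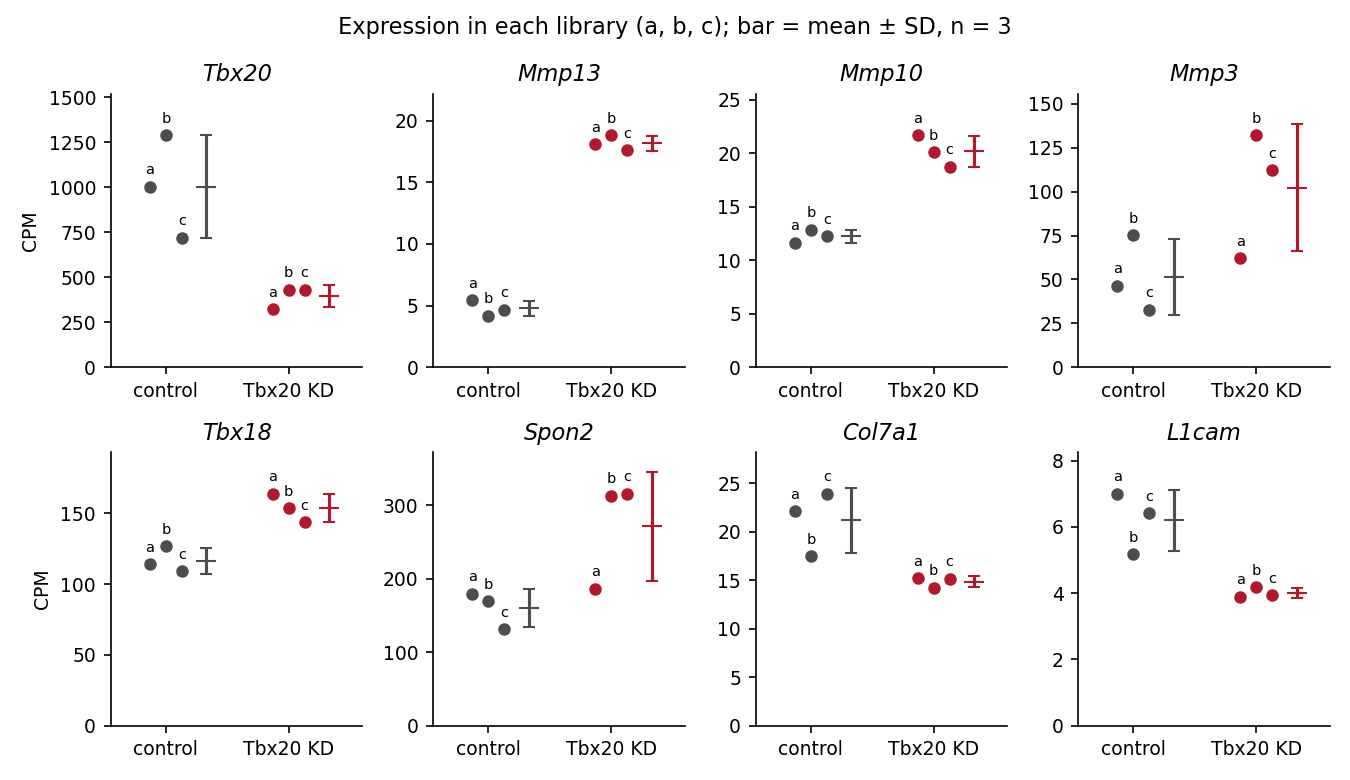
Expression of 8 genes in CPM (y axis, from 0) in each control (grey) and Tbx20 KD (red) library, labelled a, b and c, with the mean and SD of each group beside the points (n = 3). Mmp13 lies between 17.6 and 18.8 CPM in Tbx20 KD against 4.19 to 5.43 CPM in control, while Mmp3 in Tbx20 KD a (62.1 CPM) falls inside the control range.

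Across all genes, 1 of 14547 passed the threshold (0.00687%), and it was higher in Tbx20 KD. That gene was Mmp13, the collagenase that cuts fibrillar collagens and is best known from cartilage and bone. The number of lower genes past the threshold was 0 in edgeR's quasi-likelihood test, with 2 in DESeq2. Before adjustment, 392 genes (2.69%) had a p under 0.05, 178 of them higher (1.22%) and 214 lower (1.47%) in Tbx20 KD. The libraries of the groups did not overlap at 1008 genes (6.93%), of which 497 were higher (3.42%) and 511 lower (3.51%). For a single value, an exact permutation test of groups this small gives a p of 0.1 at best. The median log2 fold change was -0.0022, and the interquartile range ran from -0.080 to 0.073.

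**Figure D2:**
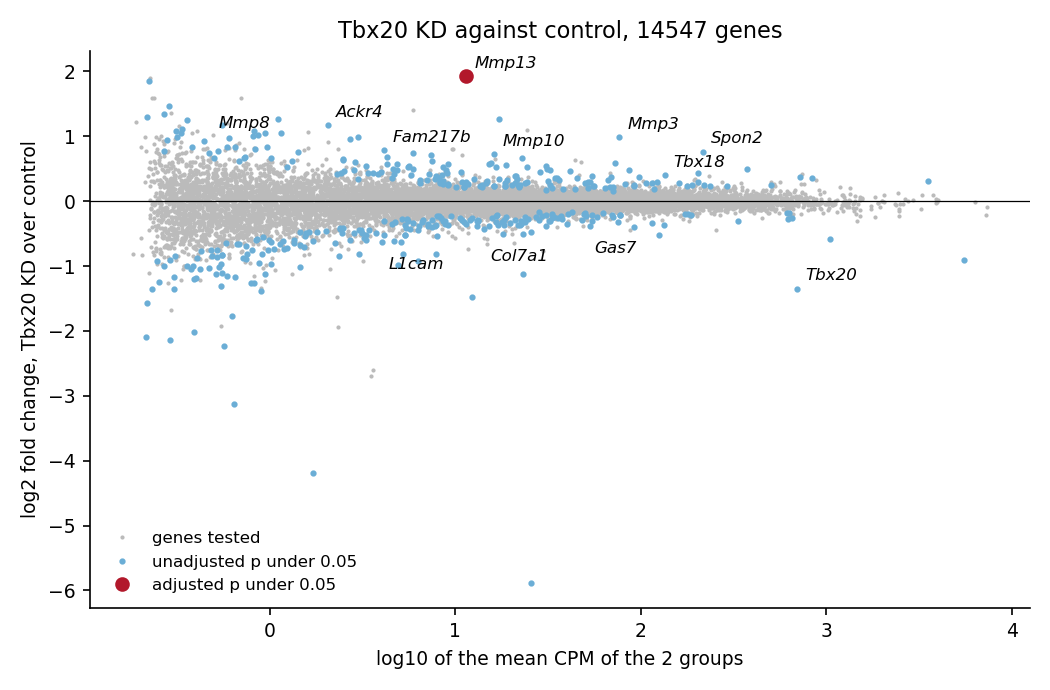
Log2 fold change of Tbx20 KD over control (y axis) against the log10 of the mean CPM of the groups (x axis) for 14547 genes. Blue points have an unadjusted p under 0.05, Mmp13 is the only gene at an adjusted p under 0.05 (red, 1.93), Tbx20 is at -1.35, and most genes above 10 CPM lie close to 0.

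The error behind these fold changes came mainly from the controls. The median SD of log2 CPM among replicates was 0.161 in control and 0.0976 in Tbx20 KD, and the control SD was the larger one at 68.4% of genes. The common biological coefficient of variation was 15.2% in control, 8.19% in Tbx20 KD and 11.9% in Gata4 KD. Control b was the library farthest from its group at 51.5% of genes, and without it the coefficient of the controls was 8.84%. Tbx20 KD a was the farthest at 48.7% of genes, and without it that of Tbx20 KD was 4.15%. The precision that resulted was still enough to bound most genes: the 95% interval of the log2 fold change lay within a 2-fold change in either direction for 12931 genes (88.9%). At 10 to 100 CPM this share was 99.3% and above 100 CPM it was 99.7%, while under 1 CPM it was 34.7%.

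**Figure D3:**
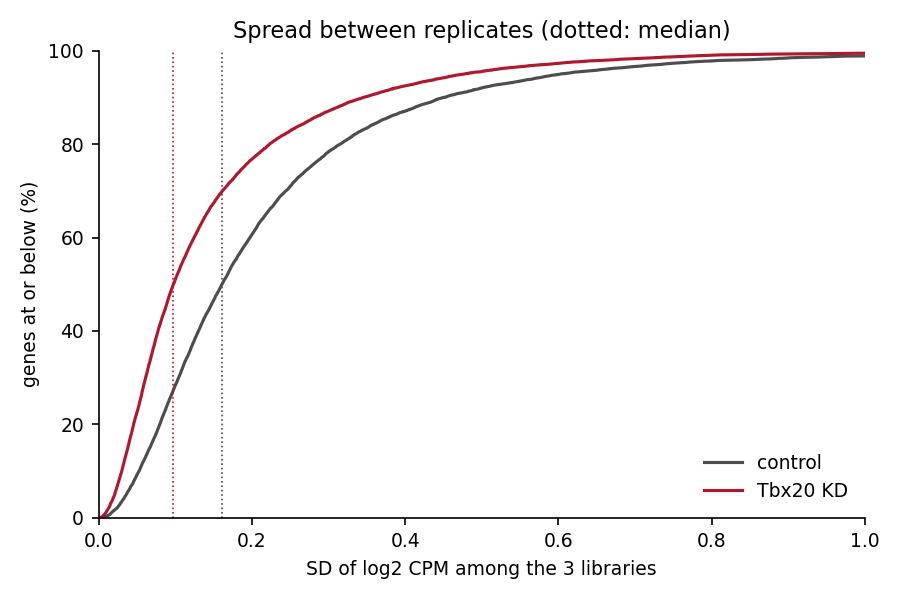
Share of the 14547 genes (y axis, %) whose SD of log2 CPM among the 3 libraries of a group is at or below the value on the x axis, for control (grey) and Tbx20 KD (red). The dotted medians are 0.161 and 0.0976, and the control curve lies to the right over most of its course.

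Mmp13 (ENSMUSG00000050578) lies on chromosome 9 from 7272514 to 7283331. It was at 5.43, 4.19 and 4.66 CPM in control and at 18.1, 18.8 and 17.6 CPM in Tbx20 KD. The groups were far apart and the spread within each was small, in contrast to Tbx20. The mean rose from 4.76 ± 0.630 to 18.2 ± 0.608 CPM (SD, n = 3 each), 3.81-fold (95% interval 3.17 to 4.58). The log2 fold change was 1.93 (SE 0.12), with an adjusted p of 0.00166 in edgeR's quasi-likelihood test. Mmp13 passed in each of the 16 alternative fits, with an adjusted p of at most 0.0313. In the Gata4 KD libraries its level was 3.69 ± 1.03 CPM (SD, n = 3), on a scaling over all 9 libraries.

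Mmp13 is one of 10 metalloproteinase genes that stand side by side on chromosome 9, of which 7 passed the filter on low counts. Mmp13 rose, and the other 6 tested members had higher means in Tbx20 KD without passing the threshold. An unadjusted p under 0.05 was found for 5 of the 7, all higher, where 1.22% of all genes were higher with such a p. For 4 of the 7 (57.1%, against 3.42% of all genes) every Tbx20 KD library lay above every control. The median log2 fold change of the 7 was 0.72, against -0.0022 over all genes. It stayed between 0.67 and 0.85 in the 16 alternative fits. The summed level of the 10 genes was 78.4, 106 and 62.9 CPM in control and 119.8, 191 and 164 CPM in Tbx20 KD.

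Mmp10, a stromelysin that cuts proteoglycans and activates other metalloproteinases, was at 11.6, 12.8 and 12.2 CPM in control and 21.7, 20.1 and 18.7 CPM in Tbx20 KD. All Tbx20 KD libraries were above all controls, and the log2 fold change was 0.72 (SE 0.09, 95% interval 0.51 to 0.94). Its adjusted p was 0.33 in edgeR's quasi-likelihood test and 3.4e-06 in DESeq2. Its p-value before adjustment was the smallest after that of Mmp13. Mmp8, the collagenase known from neutrophils, was at 0.946, 0.792 and 0.481 CPM in control and 1.22, 1.81 and 1.65 CPM in Tbx20 KD (log2 fold change 1.06, SE 0.29), a level of 16 to 66 counts per library. Mmp27, a little-studied member, was at 4.06, 4.38 and 3.61 CPM against 5.56, 5.30 and 5.31 CPM (log2 fold change 0.42, SE 0.13). Neither Mmp8 nor Mmp27 overlapped between the groups, and their adjusted p was 1.0 in the same test.

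Mmp3, the main stromelysin of fibroblasts and the most abundant of the cluster per length of annotated exon, behaved differently. It was at 46.4, 75.2 and 32.7 CPM in control and 62.1, 132 and 112 CPM in Tbx20 KD, so that Tbx20 KD a lay between controls a and b. Its log2 fold change was 0.99 (SE 0.34, 95% interval 0.22 to 1.76), and it ranged from 0.75 without control c to 1.37 without control b. Mmp1b and Mmp12, the latter an elastase best known from macrophages, overlapped between the groups, with log2 fold changes of 0.49 (SE 0.36) and 0.19 (SE 0.18). Mmp1a stayed under the filter at up to 0.0811 CPM, and Mmp7 and Mmp20 had no count in any of the 6 libraries. Reads that match several genes were divided among them by the authors' software, but for Mmp10 and Mmp3 only 3.94% and 3.76% of 75 base windows also occur in another gene, and for Mmp13 none.

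Outside the cluster, 9 further metalloproteinases were tested and all lay between -0.04 and 0.31 on the log2 scale, none with an unadjusted p under 0.05. They included Mmp14 and Mmp2, a membrane-bound activator and the gelatinase it activates, which were the metalloproteinases most abundant per length in control (68.5 ± 1.84 and 52.8 ± 9.82 CPM per kb of exon, SD, n = 3). Of the inhibitors Timp1, Timp2, Timp3 and Reck were tested, with log2 fold changes from -0.0087 to 0.081 and 95% intervals within a 2-fold change. Timp4 had no count. On the per-length scale Mmp13 went from 1.78 ± 0.25 to 6.73 ± 0.205 CPM per kb (SD, n = 3 each), which was still under the 11.6 ± 0.839 of Mmp10 and the 56.3 ± 19.8 of Mmp3 in Tbx20 KD.

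**Figure D4:**
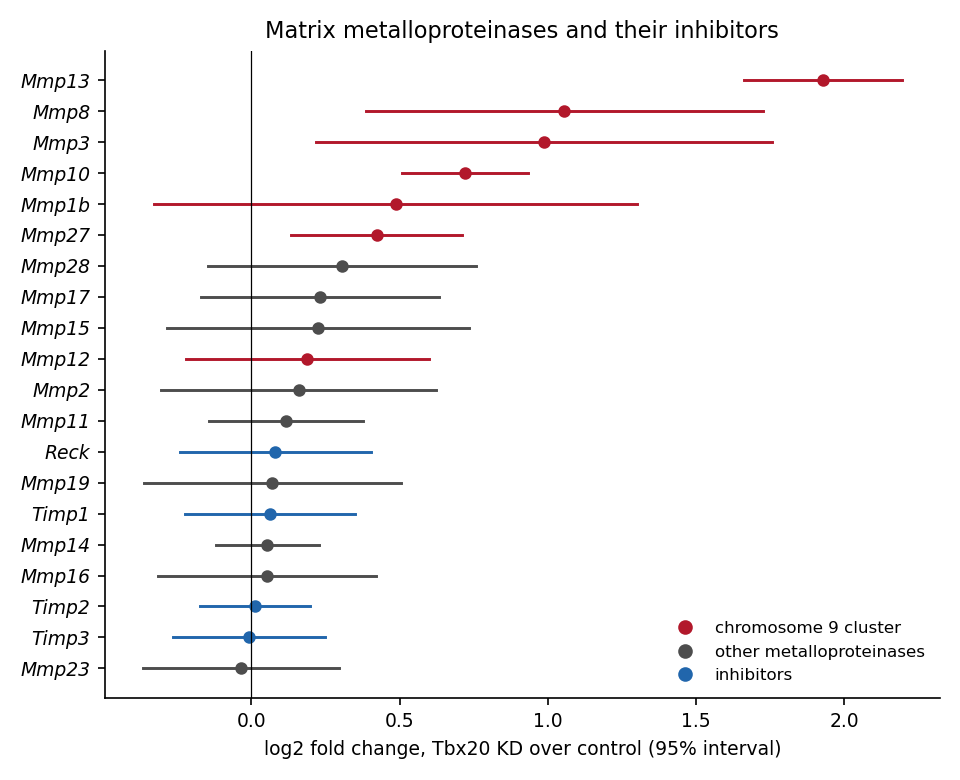
Log2 fold change of Tbx20 KD over control (x axis, point, with its 95% interval as a line) for the 16 metalloproteinases and 4 inhibitors that were tested. The genes of the chromosome 9 cluster (red) fill the first 6 places, from Mmp13 at 1.93 to Mmp27 at 0.42, and the inhibitors (blue) lie between -0.0087 and 0.081.

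The promoters of the 3 cluster genes with the largest fold changes among those at 5 CPM or more in Tbx20 KD are shown because they carry the letters of a known metalloproteinase control element, the AP-1 site (TGANTCA), in capitals. Each is the 250 bases before the gene start in RefSeq (GRCm38.p6), on the plus strand of chromosome 9, at chr9:7272264-7272513 for Mmp13, chr9:7502092-7502341 for Mmp10 and chr9:7445572-7445821 for Mmp3.
Mmp13: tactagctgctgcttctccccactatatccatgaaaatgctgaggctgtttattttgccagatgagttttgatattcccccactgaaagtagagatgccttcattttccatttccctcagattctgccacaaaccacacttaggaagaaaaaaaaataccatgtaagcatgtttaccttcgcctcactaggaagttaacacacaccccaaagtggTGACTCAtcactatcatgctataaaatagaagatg
Mmp10: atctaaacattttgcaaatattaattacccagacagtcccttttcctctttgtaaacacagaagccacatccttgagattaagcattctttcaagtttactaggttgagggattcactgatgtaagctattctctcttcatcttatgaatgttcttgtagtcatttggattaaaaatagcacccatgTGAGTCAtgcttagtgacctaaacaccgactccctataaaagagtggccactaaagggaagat
Mmp3: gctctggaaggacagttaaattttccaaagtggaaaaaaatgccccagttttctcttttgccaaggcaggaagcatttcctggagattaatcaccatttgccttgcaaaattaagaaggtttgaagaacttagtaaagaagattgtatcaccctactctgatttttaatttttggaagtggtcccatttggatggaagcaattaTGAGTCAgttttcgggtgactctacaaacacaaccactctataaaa
The AP-1 letters begin 35, 63 and 46 bases before the start in these promoters. A search of both strands found them in a promoter of 8 of the 10 cluster genes, but not in those of Mmp8 and Mmp27, and they occur in 6.73% of 32536 mouse promoters of that length. The T-box element GGTGTGA, present in 3.33% of all promoters, was found in none of the 12 promoters of the cluster genes nor in that of Tbx20. A match is only a description of letters, and its absence from 250 bases says nothing about binding elsewhere.

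As Tbx20 and the metalloproteinase cluster share chromosome 9, the chromosome was examined as a whole. The nearest ends of Mmp13 and Tbx20 are 17.4 Mb apart. The 81 tested genes within 5 Mb of Tbx20 had a median log2 fold change of -0.016, and 0 of them had an unadjusted p under 0.05 in edgeR's quasi-likelihood test. Over the 800 tested genes of the chromosome the median was 0.0026, and 23 (2.88%, against 2.69% of all genes) had such a p. The nearest tested neighbours, Dpy19l1, Herpud2, Sept7 and Eepd1, had log2 fold changes between -0.029 and 0.19, all overlapping between the groups.

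Genes with an unadjusted p under 0.05, no overlap and at least 5 CPM in the higher group were ranked, with predicted, clone and pseudogene names left out. Of these, 88 were higher and 73 lower in Tbx20 KD. The 10 at each end of that ranking are described here with values. At the higher end Mmp13 passed the threshold and the others, Mmp10 among them, did not. Spon2, a secreted matrix protein of the spondin family, was at 179, 169 and 131 CPM in control and 186, 312 and 315 CPM in Tbx20 KD (log2 fold change 0.76, SE 0.20). Its groups were barely separated, because Tbx20 KD a stood close to the controls. Fam217b was at 3.27, 2.83 and 3.04 CPM against 4.82, 5.58 and 5.41 CPM (0.79, SE 0.13), and Rnpepl1, an aminopeptidase-like protein, at 12.7, 11.1 and 13.2 CPM against 18.5, 17.9 and 18.3 CPM (0.57, SE 0.09). These were even within each group, and both passed in DESeq2 (adjusted p 0.0257 and 0.00362).

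Pparg, the nuclear receptor that drives fat cell formation, was at 3.73, 3.73 and 2.89 CPM in control and 4.70, 5.84 and 4.89 CPM in Tbx20 KD (log2 fold change 0.57, SE 0.16). Cadm1, an adhesion molecule of the immunoglobulin family, was at 4.57, 7.75 and 5.45 CPM against 9.02, 8.40 and 9.77 CPM (0.62, SE 0.19). Bmx, a Tec family tyrosine kinase, was at 4.65, 3.87 and 3.25 CPM against 4.79, 6.98 and 5.76 CPM (0.57, SE 0.19). For Cadm1 and Bmx the lowest Tbx20 KD library stood near the highest control. Gpr153, an orphan receptor, and Arhgap6 had log2 fold changes of 0.59 (SE 0.14) and 0.54 (SE 0.12). Arhgap6 and Ccn4, a matricellular protein known as a Wnt target, passed when control b was left out (adjusted p 0.0444 and 0.0453 in edgeR's quasi-likelihood test), and Arhgap6 also in an exact test with a common dispersion. Ccn4 was at 288, 364 and 280.5 CPM in control and 411, 452 and 448 CPM in Tbx20 KD.

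The lower end held Tbx20 and 9 genes with smaller differences. L1cam, a neural adhesion molecule, was at 7.003, 5.18 and 6.41 CPM in control and 3.89, 4.19 and 3.94 CPM in Tbx20 KD, a log2 fold change of -0.63 (SE 0.14). Col7a1, which forms the anchoring fibrils under epithelia, was at 22.1, 17.5 and 23.9 CPM against 15.2, 14.2 and 15.2 CPM (-0.51, SE 0.12). In both genes the Tbx20 KD libraries lay close together and control b came nearest to them. Atp2b4, a plasma membrane calcium pump, was at 8.44, 8.46 and 8.61 CPM in control and 5.75, 5.87 and 7.73 CPM in Tbx20 KD (-0.40, SE 0.14). The remaining 6 had log2 fold changes between -0.43 and -0.38. They were Acot1, an acyl-CoA thioesterase that shares 14.98% of its windows with other genes, Strip2, Gas7, a gene induced on growth arrest, Plekho1, Xylt1, which starts glycosaminoglycan chains on proteoglycans, and Tom1l1. None of these 10 passed the threshold. Among these 10, Tbx20 aside, the lowest adjusted p over the alternative fits was 0.0305, that of L1cam in an exact test with a common dispersion.

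**Figure D5:**
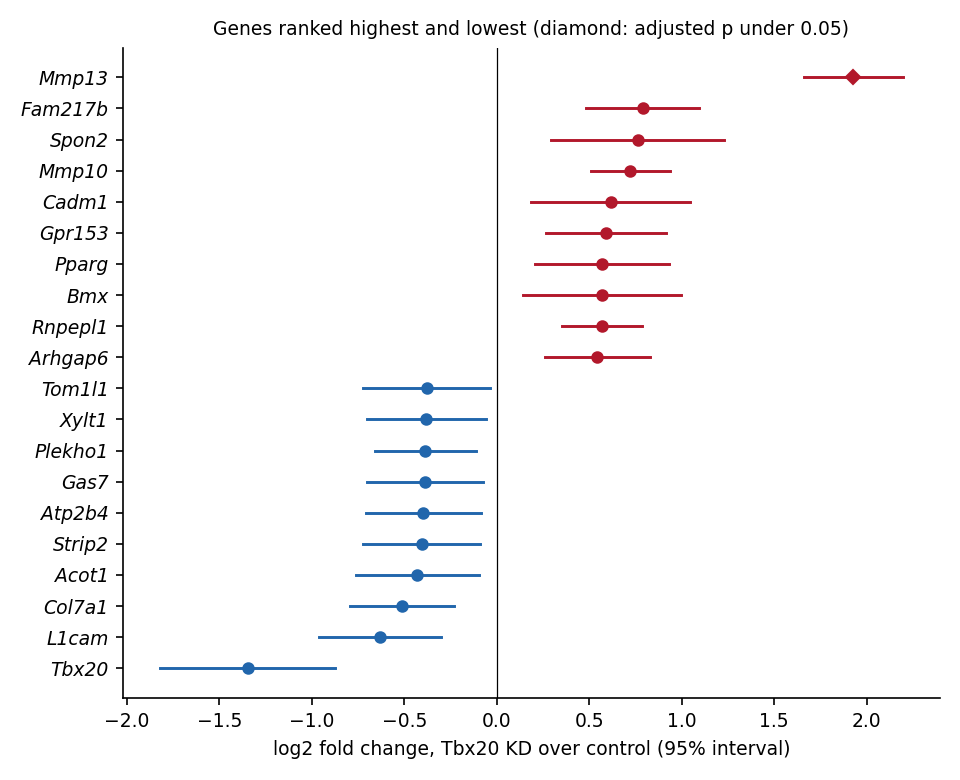
Log2 fold change of Tbx20 KD over control (x axis, point, with its 95% interval as a line) for the 10 highest (red) and 10 lowest (blue) genes by the naming rule. Mmp13 (1.93) and Tbx20 (-1.35) stand apart from genes whose fold changes lie between 0.54 and 0.79 or between -0.63 and -0.38.

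DESeq2, which estimates the error in another way, called 10 genes (0.0687%), 8 higher and 2 lower, Mmp13 among them. The others beyond those named above were Ndrg1, Hgf, Cplx2, Gm10273 and the antisense gene Gm15640. Gm15640 was the lower call besides Tbx20, at a log2 fold change of -0.92 (adjusted p 0.00118 in DESeq2). It also passed in the exact tests with tagwise (adjusted p 0.0048) and common dispersion (adjusted p 1.6e-05). Hgf, the hepatocyte growth factor that fibroblasts secrete, was at 19.4, 22.7 and 18.1 CPM in control and 26.4, 30.4 and 30.3 CPM in Tbx20 KD (log2 fold change 0.53, SE 0.11). Ndrg1, induced by hypoxia and by iron loss, was at 28.4, 25.7 and 28.0 CPM against 35.0, 38.3 and 40.6 CPM (0.47, SE 0.09). Cplx2, a regulator of vesicle release, was at 56.3, 62.3 and 61.3 CPM against 79.9, 74.2 and 79.2 CPM (0.38, SE 0.07). These 3 genes showed the same even separation of the groups as Rnpepl1. For Gm10273, at 10.7, 8.88 and 10.9 CPM against 17.7, 20.8 and 34.8 CPM, 92.4% of windows also occur in another gene, so its count is uncertain.

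Among the 17 T-box factors, 8 were tested, and apart from Tbx20 the one that differed most was Tbx18, a factor of the epicardium, from which many cardiac fibroblasts descend. Tbx18 was at 114, 127 and 109 CPM in control and 164, 153 and 144 CPM in Tbx20 KD. The groups were separate, with a log2 fold change of 0.40 (SE 0.09, 95% interval 0.20 to 0.60) and an adjusted p of 1.0 in edgeR's quasi-likelihood test. Per length of annotated exon Tbx20 was the most abundant T-box factor in control (83.5 ± 23.2 CPM per kb of exon, SD, n = 3), ahead of Tbx18 (24.7 ± 1.75), Mga (11.2 ± 1.10), Tbx15 (2.65 ± 0.217) and Tbx2 (1.08 ± 0.117). In Tbx20 KD the levels of Tbx20 and Tbx18 were 32.6 ± 5.15 and 32.3 ± 2.07 CPM per kb, which overlapped in range. This closeness depends on the length used, 11997 bases of exon over all annotated transcripts for Tbx20 and 4718 for Tbx18. In CPM their means in Tbx20 KD were 395 and 154. Mga, Tbx15, Tbx2, Tbx3, Tbx4 and Tbx5 had log2 fold changes from -0.23 to 0.13, all overlapping between the groups.

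Of 32 transcription factors known from heart development, 27 were tested, and 19 had a higher and 8 a lower mean in Tbx20 KD (median log2 fold change 0.12, against -0.0022 over all genes). An unadjusted p under 0.05 was found for 4, all higher (1.22% of all genes were higher with such a p), and 0 passed the threshold in edgeR's quasi-likelihood test and in DESeq2. Log2 fold changes in the list ran from -0.48 to 0.80. Gata4 was at 164, 156 and 167 CPM in control and 179, 194 and 199 CPM in Tbx20 KD (0.23, SE 0.07). Foxc2, a forkhead factor of mesenchyme and vessels, was at 14.1, 16.6 and 14.8 CPM against 20.04, 17.7 and 20.1 CPM (0.35, SE 0.10). The Gata4 and Foxc2 libraries did not overlap between groups, whereas those of Tcf21, the factor needed for the cardiac fibroblast lineage, did, at 178, 202 and 168 CPM against 186, 253 and 235 CPM (0.30, SE 0.12). The median of the list was 0.055 without control c and 0.20 without control b, and the number with an unadjusted p under 0.05 was 13 without control b, when 17.4% of all genes had one.

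For the matrix, 34 of 44 collagen genes were tested. Their median log2 fold change was -0.048, 24 had a lower mean (7374 of 14547 over all genes), and the 3 with an unadjusted p under 0.05 were all lower, where 1.47% of all genes were lower with such a p. These were Col7a1, Col18a1, the basement membrane collagen that yields endostatin, and Col12a1, which decorates fibrils. Col18a1 was at 28.8, 25.1 and 25.2 CPM in control and 19.8, 21.4 and 22.1 CPM in Tbx20 KD (-0.32, SE 0.09). Col12a1 overlapped, at 415, 327 and 365 CPM against 340.0, 259 and 301 CPM (-0.30, SE 0.12). The fibril-forming Col1a1 and Col3a1, at 4010 ± 32.7 and 3176 ± 472 CPM in control (SD, n = 3), had log2 fold changes of -0.020 (SE 0.09) and 0.089 (SE 0.15). With 1 library left out, the number of collagens with a lower mean ran from 18 (without Tbx20 KD a) to 29 (without control c), and the median from -0.0063 without Tbx20 KD a to -0.12 without Tbx20 KD c. Of 22 myofibroblast genes 16 had a lower mean (median -0.078), and Tpm1, a tropomyosin of the contractile apparatus, was the only one with an unadjusted p under 0.05, at 671, 662 and 684 CPM against 621, 571 and 578 CPM (-0.19, SE 0.07). Over all genes 2.69% had such a p. Without control b the split was 11 higher and 11 lower, the median was -0.0092, and 6 had an unadjusted p under 0.05, in a fit where 17.4% of all genes did.

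Of 36 inflammatory genes of the NF-kB and IL-17 type, 29 were tested, 13 with a higher and 16 with a lower mean (median log2 fold change -0.043). Without control b the split was 15 higher and 14 lower, with a median of 0.0031. Ackr4, a scavenger receptor for chemokines, was at 1.65, 1.499 and 0.632 CPM in control and 1.67, 3.36 and 3.57 CPM in Tbx20 KD (1.17, SE 0.39). Tnfsf18, the ligand of the GITR receptor, was at 6.87, 9.02 and 5.15 CPM against 11.5, 9.67 and 9.23 CPM (0.53, SE 0.20). Neither overlapped, although Ackr4 in Tbx20 KD a exceeded control a by a small margin. Il11, a fibroblast cytokine, was at 4.57, 2.46 and 4.63 CPM in control and 3.08, 1.81 and 1.72 CPM in Tbx20 KD (-0.81, SE 0.31), and the chemokine Cxcl3 was at 3.08, 4.02 and 4.54 CPM against 3.22, 2.22 and 2.67 CPM (-0.51, SE 0.20). Both overlapped between the groups. Ptgs2, the inducible cyclooxygenase, was at 260.4, 305 and 314 CPM against 331, 132 and 182 CPM, with Tbx20 KD a the highest library of all. None of these passed the threshold in edgeR's quasi-likelihood test or in DESeq2.

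Genes that act upstream of metalloproteinases were listed beside them. Of 16 AP-1, Runx and Ets factors, 6 had a higher and 10 a lower mean, with a median log2 fold change of -0.12. Without control b the direction turned, with 9 higher, 7 lower and a median of 0.029. The number with an unadjusted p under 0.05 was then 3, in a fit where 17.4% of all genes had one. It was 4 without Tbx20 KD a, where 5.13% of all genes did. Atf3, a stress-induced partner of AP-1, was at 6.65, 8.54 and 8.94 CPM in control and 7.23, 5.71 and 5.58 CPM in Tbx20 KD (-0.38, SE 0.16). With all 6 libraries it was the only one with an unadjusted p under 0.05, against 2.69% of all genes. Runx2, the bone factor known at the Mmp13 promoter, was at 24.3, 31.4 and 25.4 CPM against 30.1, 32.3 and 31.8 CPM (0.21, SE 0.11). Of 6 tested genes of plasminogen activation 5 had a lower mean, with Plau, the urokinase, at 41.0, 33.9 and 46.4 CPM against 41.4, 24.5 and 26.3 CPM (-0.39, SE 0.20). Runx2 and Plau overlapped between the groups. The plasminogen genes split into 3 higher and 3 lower without control b and into 2 and 4 without any 1 of the Tbx20 KD libraries, and their median went from -0.036 to -0.18 without Tbx20 KD a.

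In the Notch pathway 16 of 22 genes were tested, 9 with a higher and 7 with a lower mean. Their log2 fold changes ran from -0.48 to 0.80. The receptor Notch4 was at 26.0, 24.5 and 24.7 CPM in control and 18.0, 20.4 and 22.4 CPM in Tbx20 KD (log2 fold change -0.31, SE 0.10). Rfng, a glycosyltransferase that modifies the receptors, was at 10.1, 9.76 and 11.2 CPM against 11.9, 11.8 and 12.4 CPM (0.22, SE 0.09). Neither overlapped. The target gene Heyl was at 7.76, 8.40 and 5.09 CPM in control and 5.77, 14.6 and 16.8 CPM in Tbx20 KD, so that Tbx20 KD a lay inside the control range. Its log2 fold change was 0.80 (SE 0.36, 95% interval -0.03 to 1.63), or 1.15 without Tbx20 KD a, and its adjusted p was 1.0 in edgeR's quasi-likelihood test. Hey2 was at 1.19, 1.67 and 1.14 CPM in control and 1.74, 1.52 and 2.09 CPM in Tbx20 KD (0.42, SE 0.23), with overlap between the groups. Notch1, Notch2 and Notch3 had log2 fold changes from -0.0064 to 0.19.

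A list of genes that mark fibroblasts of the heart among those of several organs (eHF genes) came from the study's work on different samples. Of the 40 that were found here, 36 were tested, 23 with a higher and 13 with a lower mean in Tbx20 KD. Besides Tbx20, Bmx and Mmp3, the unadjusted p was under 0.05 for Rcsd1 and for Gucy1b1, a subunit of the nitric oxide receptor guanylate cyclase. Over all genes 2.69% had such a p. Rcsd1 was at 19.1, 21.4 and 16.9 CPM in control and 12.6, 15.8 and 16.4 CPM in Tbx20 KD (-0.36, SE 0.13). Gucy1b1 was at 156, 218 and 146 CPM against 201, 253 and 246 CPM (0.43, SE 0.16), and its partner subunit Gucy1a1 was at 10.6, 27.6 and 8.46 CPM against 16.03, 41.0 and 42.9 CPM (1.10, SE 0.49). Both subunits overlapped between the groups, with control b above Tbx20 KD a. The median of the list was 0.14, or 0.0075 without Tbx20 KD b and 0.26 without Tbx20 KD a.

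Lists that report on the state of the cells were also counted. The p53 targets (25 genes), which respond to cut DNA, the interferon-stimulated genes (29) and the cell cycle genes (26) were all tested, and 0 of them had an unadjusted p under 0.05 in edgeR's quasi-likelihood test or passed in DESeq2. For each of them the 95% interval of the log2 fold change lay within a 2-fold change. The medians were 0.0062, 0.087 and -0.051. Without control b, 6 p53 targets, 8 interferon-stimulated genes and 3 cell cycle genes had an unadjusted p under 0.05, in the fit where 17.4% of all genes did. Without Tbx20 KD a the median of the p53 targets was -0.039, with 3 such genes, in a fit where 5.13% of all genes had such a p. Of the interferon-stimulated genes 26 had a higher mean, with Cxcl10, a chemokine, at 130.2, 223 and 165 CPM in control and 187, 264 and 201 CPM in Tbx20 KD. The median of this list was 0.026 without Tbx20 KD b, when 21 of 29 had a higher mean, and 0.035 without control a. Cell cycle genes had a lower mean in 20 of 26 cases, but in 7 without control c or without Tbx20 KD c, in 12 without Tbx20 KD b and in 26 without Tbx20 KD a.

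The labelled cell type was checked against markers. All 10 fibroblast markers were tested, and their summed level was 10943 to 12070 CPM in control and 10703 to 12778 CPM in Tbx20 KD. Markers of leukocytes summed to 55.5 to 62.5 CPM in control and 51.5 to 81.1 CPM in Tbx20 KD, and those of endothelial cells to 46.2 to 65.8 and 50.1 to 62.6 CPM. Of 17 cardiomyocyte markers 4 were tested, and Myl7, Myl3, Pln and Nppa had no count in the 6 libraries. The list was not silent, as it summed to 30.5 to 37.4 CPM in control and 27.1 to 32.6 CPM in Tbx20 KD. Most of this was Tnnt2, at 29.96, 23.9 and 23.3 CPM in control. In Tbx20 KD Tnnt2 was at 25.5, 21.4 and 21.1 CPM (-0.18, SE 0.12). Tnnc1, the troponin C of heart and slow muscle, was at 3.16, 2.97 and 3.91 CPM against 2.58, 2.41 and 2.17 CPM (-0.49, SE 0.17). Epicardial and mesothelial markers summed to 207 to 234 CPM in control and 248.6 to 283 CPM in Tbx20 KD, of which Tbx18 made up the larger part. The keratin Krt19, at 7.19, 5.32 and 7.58 CPM against 5.84, 2.51 and 3.02 CPM (-0.81, SE 0.30), and Upk1b (-0.73, SE 0.33) had lower means, and Bnc1, a factor of mesothelium, was at 0.782 to 1.08 CPM against 1.12 to 1.35 CPM (0.44, SE 0.22). The part of other cell types in the results above was not tested.

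Some abundant transcripts that bear on library composition had an unadjusted p under 0.05 as well, and they were picked out after their values were seen. Gm42418, a transcript that overlaps ribosomal RNA, was at 11104, 4752 and 5757 CPM in control and 4691, 3810 and 2979 CPM in Tbx20 KD (-0.91, SE 0.30). Lars2, a mitochondrial tRNA synthetase gene, was at 1864, 833 and 1093 CPM against 865, 831 and 838 CPM (-0.58, SE 0.25), with control a far above the rest in both genes. Without control a the log2 fold changes were -0.46 and -0.19. The mitochondrial transcripts mt-Co1, mt-Nd1 and mt-Co3 had log2 fold changes of 0.32 (SE 0.10), 0.37 (SE 0.15) and 0.35 (SE 0.15), and all mitochondrial genes took 0.806% to 1.01% of counts in control and 0.969% to 1.21% in Tbx20 KD. None passed the threshold, and their part in other results was not tested.

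The variation inside the groups had a pattern of its own, also described after its values were seen. Some genes were low in control c and in Tbx20 KD a and high in control b and in Tbx20 KD b and c, and the examples named here were chosen for it. Mfap4, a protein of elastic fibres, was at 12.7, 19.7 and 5.84 CPM in control and 7.59, 24.4 and 28.1 CPM in Tbx20 KD. Dpt, which binds collagen fibrils, was at 15.95, 24.5 and 9.69 CPM against 10.4, 25.8 and 27.4 CPM, and complement C3 at 39.8, 48.4 and 24.1 CPM against 24.2, 53.8 and 41.6 CPM. The growth arrest gene Gas1 was at 6.22, 12.9 and 4.39 CPM against 4.79, 13.3 and 12.96 CPM. Fosl1, a subunit of AP-1, ran the other way, at 26.8, 23.2 and 33.2 CPM against 32.2, 18.9 and 19.9 CPM. The summed level of the cell cycle list did so too, at 2435, 2243 and 2595 CPM in control and 2700, 2215 and 2193 CPM in Tbx20 KD. Over 10578 protein-coding genes at 3 CPM or more in every library, 21 were among the 100 genes with the largest excess of control b over control c and also among the 100 with the largest excess of Tbx20 KD b and c over a. Across these genes, which are not independent replicates, the differences correlated at r = 0.308. Mmp3, Heyl and Gucy1a1 followed this pattern, and Mmp13, Mmp10 and Tbx18 did not. Tbx20 itself had the same order within each group, at 1004, 1289 and 719 CPM in control and 323, 431 and 431 CPM in Tbx20 KD. Whether its spread is part of this pattern was not tested.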

How the data were processed

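RNA-seq libraries of single-end 75 bp reads were deposited by the authors as 1 table of gene counts. The values are expected counts, estimated by the authors with RSEM after alignment with Bowtie, strand-aware and deposited as whole numbers. The study's methods name GRCm38, whereas the submitters' processing notes list mm9, and coordinates here are from GENCODE M21 (GRCm38), matched by gene identifier. Symbols were found for 37607 of 38924 identifiers (96.62%), and the rest held 0.262% of counts.

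Genes were kept by filterByExpr over the 6 control and Tbx20 KD libraries, scaled by TMM, and tested with edgeR 4.0.16 (quasi-likelihood, R 4.3.3) with Benjamini-Hochberg adjustment at 0.05. Standard errors came from the F statistic. Alternatives used DESeq2 1.42.0, limma 3.58.1, edgeR's exact tests, other filters and scalings, all 9 libraries, the replicate letter as a block, and each library left out in turn. The fits were tested on simulated data. Named genes were Tbx20, genes past the threshold, the 10 highest and lowest genes with an unadjusted p under 0.05, no overlap and at least 5 CPM, genes past the threshold without 1 library, up to 4 genes of each list by p, the metalloproteinase cluster and the T-box factors. Predicted, clone and pseudogene names were left out of the 10 highest and lowest. Genes outside this rule, those called by DESeq2 included, were chosen after their values were seen. The comparison and the gene lists were chosen with earlier results of these data known. No count is adjusted over a list alone. A gene's CPM per kb used CPM on the scaling over all 9 libraries. It was divided by the gene's summed exon length over all annotated transcripts, not by the length of 1 transcript. Markers of smooth muscle cells and pericytes summed to 27.1 to 36.7 CPM in control and 30.3 to 40.1 CPM in Tbx20 KD, and those of Schwann cells to 1.56 to 2.47 and 1.32 to 1.79 CPM.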

Additional observations from a re-analysis of the deposited data

How the results depend on the processing

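The number of genes past the threshold was 1 in edgeR's quasi-likelihood test, 10 in DESeq2, 2 with no filter beyond a total above 0, 6 in an exact test with tagwise dispersion and 104 in an exact test with a common dispersion, of which 44 were higher and 60 lower. Leaving out 1 library gave 1 to 5, and the 5 arose without control b (Mmp13, Ccn4, Arhgap6, Gm11518 and Gm9385, the last pair uncertain because 81.2% or more of their windows occur in other genes). Without control b, 2572 genes (17.4%) had an unadjusted p under 0.05. Tbx20 passed at log2 fold changes of -1.35 in DESeq2 (adjusted p 2.8e-08), -1.34 with no filter (0.0318), -1.35 with tagwise dispersion (1.4e-09) and -1.35 with a common dispersion (4.5e-17). The replicate letter as a block gave 2 genes past the threshold, Mmp13 and Gm15725. The correlations of deviations between equal letters were -0.012, 0.22 and -0.0029 for a, b and c. Not every library correlated best with its own letter. Deviations from a mean of 3 libraries are not independent, so these values cannot settle whether the letters pair the libraries. The fold changes of 62 further genes, mostly chosen for a small unadjusted p in these same libraries, kept their direction in all settings run. That choice favours a stable direction. Genes named with changes near 0, such as Col1a1 and the TIMP inhibitors, were not among the 62. Of the values for the 62 genes, 956 were on the same side of the threshold and 35 newly past it. Scaling by library size alone moved the median of all genes to 0.0056 and the split of genes with an unadjusted p under 0.05 from 178 higher and 214 lower to 203 and 183. With 3 libraries a group and controls of unequal spread, changes under 2-fold in genes below 1 CPM were mostly not detectable. The limit was not confined to such genes or to such changes. In edgeR's quasi-likelihood test Tbx20, at a mean of 1004 CPM in control, missed the threshold at a log2 fold change of -1.35 (adjusted p 0.748). Mmp10, at 12.2 CPM in control, missed it at 0.72 (adjusted p 0.33). The only gene past it, Mmp13, had a log2 fold change of 1.93.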

Other observations

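Some transcripts varied more between libraries of a group than between the groups. Rorb, an orphan nuclear receptor, was at 8.22 CPM in control a and at 125 and 192 CPM in controls b and c, and at 154, 81.2 and 73.7 CPM in Tbx20 KD. Egr1, an immediate early gene, was at 22.1, 89.6 and 23.6 CPM in control and 62.6, 22.9 and 22.3 CPM in Tbx20 KD, so that control b and Tbx20 KD a stood out. Rn7sk, a small nuclear RNA that holds back transcription elongation, was at 42.02, 12.05 and 40.8 CPM in control and 18.8, 14.3 and 10.5 CPM in Tbx20 KD (log2 fold change -1.12), with control b inside the Tbx20 KD range. These genes were chosen after their values were seen.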
